A study of Mus musculus with 6 samples.

Results

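Heat shock proteins are chaperones that bind unfolded or partly folded proteins and help them fold, assemble or be degraded. In the cytosol the HSP70 proteins bind short exposed stretches of a client, J-domain proteins such as DNAJB1 deliver the client and speed the ATP cycle, HSP110 proteins such as HSPH1 exchange the nucleotide, and HSP90 takes over clients that are close to their final fold. In mitochondria HSPD1 (HSP60) forms a folding chamber that HSPE1 (HSP10) caps. Cells that meet heat, oxidants or physical injury activate heat shock factor 1, which binds repeats of the letters GAA in alternating orientation, called heat shock elements, and raises the inducible members within minutes to hours.

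The 10 genes described here are Hspa1a, Hspa1b, Hspa8, Hsph1, Hspb1, Dnajb1, Hsp90aa1, Hsp90ab1, Hspd1 and Hspe1, out of 21813 gene symbols with values in the table. They were chosen by name, and all 10 were present, each with 1 transcript row. Islets came from 3 Ucn3 null male mice and 3 wild type male littermates, all adult at 3 months. Urocortin 3 is a peptide that beta cells release together with insulin. Each animal gave 1 library of total islet RNA. The labels call the cell type mixed, although sorting is named in the RNA extraction text. Neither the allele behind the null nor the strain is given. Values are RPKM, the density of reads on a transcript scaled for its length and for library depth, so levels of different genes can be set side by side.

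Ucn3 was at 136, 157 and 155 RPKM in the wild-type animals (replicates 1, 2, 3) and 1.61, 1.63 and 1.80 RPKM among the nulls (replicates 1, 2, 3), so the 6 libraries matched their labels. Beta cell markers summed to between 230518 and 285928 RPKM per library. Estimated depth was 42600000 to 51930000 reads per library. The heat shock genes rested on about 402 reads (Hspb1 in Ucn3 null replicate 2) to 49610 reads (Hspa1a in Ucn3 null replicate 1). These read numbers are approximate, and the part of counting error in the spread between animals described below was not tested.

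Promoter sequence was available for 7 of the 10 genes, in 10 windows of 250 bases before and 50 bases from the start (RefSeq, build GRCm38.p6). Hspa8, Hsp90aa1 and Hsp90ab1 had no entry. The stretches below were chosen for their matches to heat shock element letters, in capitals. The searched forms with 2 units were GAANNTTC and TTCNNGAA, each of which reads the same on both strands, and those with 3 units were GAANNTTCNNGAA and TTCNNGAANNTTC, which are each other's reverse complement and contain the 2-unit forms. The Hspa1a and Hspa1b stretches lie at chr17:34972157-34972306 and chr17:34959239-34959388 on the minus strand, positions -150 to -1 before each start, and are shown whole because they are nearly the same sequence. The Hspe1 stretch is at chr1:55088053-55088082 (plus strand), that of Hspb1 at chr5:135887801-135887830 (plus strand) and that of Hsph1 at chr5:149636279-149636308 (minus strand, just after the start).
Hspa1a: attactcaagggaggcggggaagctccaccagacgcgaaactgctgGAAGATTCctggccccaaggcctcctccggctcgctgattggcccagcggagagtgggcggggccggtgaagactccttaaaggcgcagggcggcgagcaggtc
Hspa1b: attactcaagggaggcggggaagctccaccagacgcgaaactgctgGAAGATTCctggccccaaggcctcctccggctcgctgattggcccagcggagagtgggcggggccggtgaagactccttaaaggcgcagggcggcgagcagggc
Hspe1: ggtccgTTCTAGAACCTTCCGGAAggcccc
Hspb1: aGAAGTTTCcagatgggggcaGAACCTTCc
Hsph1: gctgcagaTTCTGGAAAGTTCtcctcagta

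A 2-unit form was present in 7 of the 10 windows, which belong to 6 genes, and in 15.1% of all 32851 windows of the same length. A 3-unit form was present in 4 of the 10 windows, which belong to Hspd1, Hspe1 and Hsph1, and in 0.603% of all windows. The Hsph1 windows overlap and hold the same 3-unit match, so the windows counted are not all separate stretches. Hspd1 and Hspe1 are neighbours that start in opposite directions, and their windows share 1 run of 18 bases at chr1:55088059-55088076 that holds 3 overlapping matches. This run lies at positions -144 to -127 from the Hspd1 start that it precedes and at -89 to -72 from the Hspe1 start. A further 2-unit match of Hsph1, not printed, lies at -54 to -47 from the same start. Neither Dnajb1 window, and not the window at the other Hspd1 start, held these letters. These matches describe the sequence and show no binding.

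**Figure D1:**
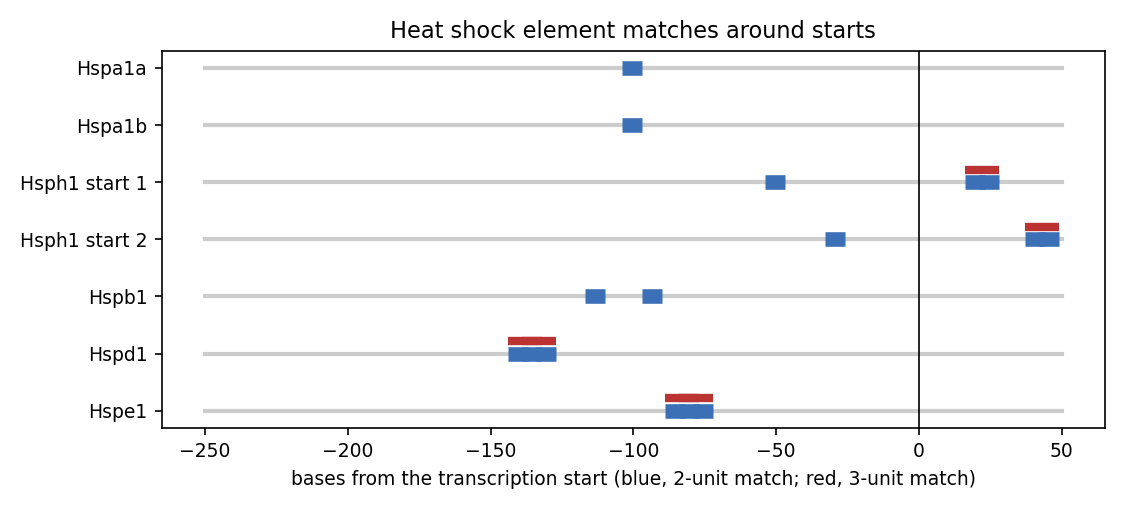
Matches to heat shock element letters around the starts of 6 genes; the x axis is the distance in bases from the transcription start and each grey bar is 1 promoter window with a match. Blue blocks are 2-unit matches and red blocks 3-unit matches, which are present for Hspd1, Hspe1 and both Hsph1 starts.

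No difference between Ucn3 null and wild type islets was detected for any of the 10 heat shock genes. With limma on log2(RPKM + 1), 0 of 10 passed an adjusted p of 0.05, and 0 of 10 had an unadjusted p under 0.05. Among all 12652 genes tested, 2 passed (0.0158%), both lower in null islets and 1 of them Ucn3 itself, and 9.36% had an unadjusted p under 0.05. The groups overlapped for all 10 genes, while 15.2% of all genes had groups that did not overlap (13.2% with the nulls lower and 1.9% with the nulls higher). What stood out was the spread between animals of the same genotype, which was wide and moved in the same direction for nearly all 10 genes. The following paragraphs give it gene by gene.

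**Figure D2:**
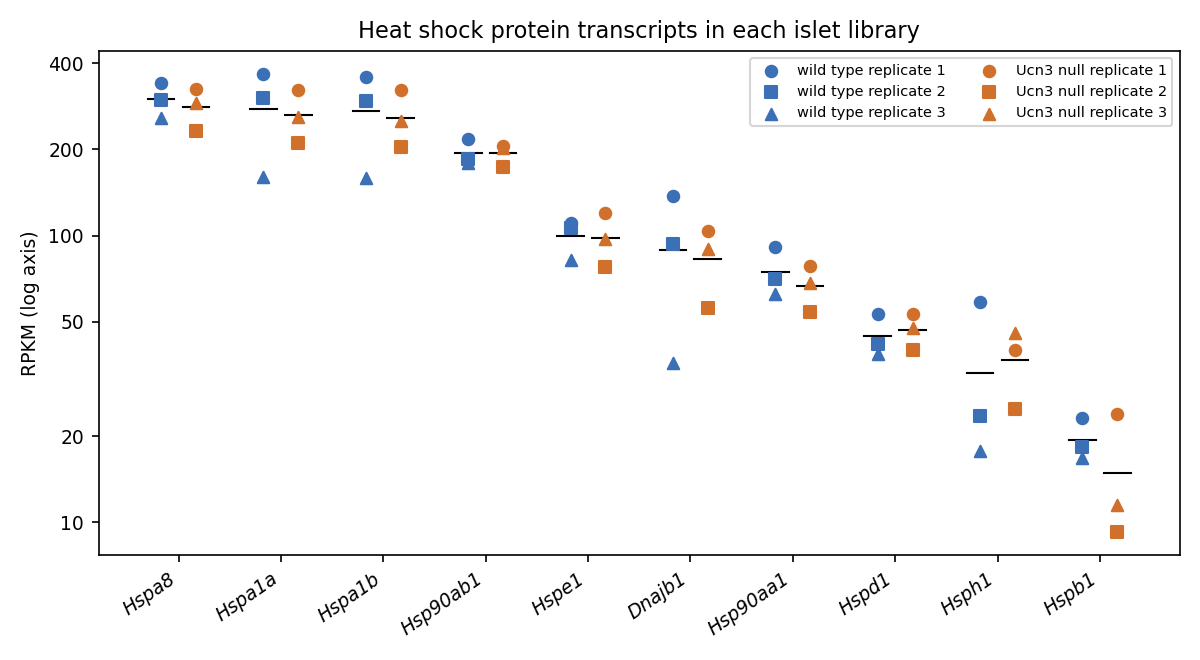
RPKM (log axis) of the 10 heat shock genes in each library, ordered by mean level; blue points are wild type, orange points Ucn3 null, marker shapes are replicates and black bars are group means (n = 3). The groups overlap for every gene, and wild type replicate 1 is above the other wild-type libraries in all 10.

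The stress-inducible HSP70 genes Hspa1a and Hspa1b were among the most abundant of the 10. Hspa1a was at 368, 303 and 160 RPKM in the wild-type animals (replicates 1, 2, 3) and 322, 211 and 259 RPKM among the nulls (replicates 1, 2, 3). Wild type held both the highest and the lowest library. The group means were 277 ± 106 and 264 ± 55.9 RPKM (SD, n = 3 each), with a log2 difference of -0.01 (SE 0.30, 95% interval -0.72 to 0.70, limma adjusted p = 0.996) whose sign changed with the scaling of the libraries. Hspa1b was at 359, 296 and 159 RPKM in the wild-type animals and 321, 203 and 250 RPKM among the nulls. The ratio of Hspa1a to Hspa1b stayed between 1.003 and 1.034 in the 6 libraries. The coding sequences of the 2 genes are identical at 99.6% of aligned bases, with 8 mismatches over 1923 and 1926 bases, and their 250 bases before the start differ at 3 positions. The counting of reads that fit both copies was not given in the sources used here, so the 2 rows are uncertain as separate measurements.

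Hspa8 encodes the constitutive HSC70, which serves housekeeping folding and uncoats clathrin vesicles. It was the most abundant member, at 340, 298 and 258 RPKM in the wild-type animals (replicates 1, 2, 3) and 324, 232 and 290 RPKM among the nulls (replicates 1, 2, 3). The libraries kept nearly the order of Hspa1a, within a narrower range. The log2 difference was -0.09 (SE 0.16, 95% interval -0.46 to 0.28, limma adjusted p = 0.905), or -0.19 with the acinar marker mean as a covariate (limma adjusted p = 0.976). The ratio of the summed Hspa1a and Hspa1b values to Hspa8 compares the inducible with the constitutive form within a library, so scaling cannot move it. It was 2.14, 2.01 and 1.23 in the wild-type animals and 1.98, 1.79 and 1.76 among the nulls. Reads that fit both copies may be counted in both rows, so the level of this ratio is uncertain. Wild type replicate 3 stood below the other 5 libraries, and the genotypes did not separate (exact two-sided permutation p = 1, the smallest possible being 0.1; adjusted over 2 ratios, 1).

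Dnajb1, the J-domain partner that HSF1 induces together with Hspa1a, had the widest range of the 10. It was at 137, 93.6 and 35.9 RPKM in the wild-type animals (replicates 1, 2, 3) and 104, 55.9 and 90.1 RPKM among the nulls (replicates 1, 2, 3). The highest wild-type library was 3.82 times the lowest, and the highest null library 1.86 times the lowest. The group means of 89.0 ± 50.9 and 83.2 ± 24.6 RPKM (SD, n = 3 each) gave a log2 difference of 0.06 (SE 0.46, 95% interval -1.02 to 1.13, limma adjusted p = 0.981). The interval runs from 0.492 to 2.19 as a fold of RPKM + 1.

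Hsph1, the HSP110 exchange factor, was at 58.6, 23.6 and 17.7 RPKM in the wild-type animals (replicates 1, 2, 3) and 39.8, 24.9 and 45.9 RPKM among the nulls (replicates 1, 2, 3). Wild type replicate 1 stood apart from the other wild-type libraries, and Ucn3 null replicate 3 was the highest null library for this gene alone among the 10. The log2 difference of 0.29 (SE 0.42, limma adjusted p = 0.878) ranged from -0.06 to 0.78 with 1 library left out, lowest without wild type replicate 3 and highest without wild type replicate 1.

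Hspb1 encodes HSP27, a small heat shock protein that holds unfolded proteins without ATP and also binds actin regulators. It was the least abundant member, at 23.1, 18.3 and 16.8 RPKM in the wild-type animals (replicates 1, 2, 3) and 23.9, 9.26 and 11.5 RPKM among the nulls (replicates 1, 2, 3). Ucn3 null replicate 1 was the highest of the 6 libraries, while the other 2 null libraries lay below all of wild type. The log2 difference was -0.46 (SE 0.30, 95% interval -1.17 to 0.25, limma adjusted p = 0.679), and leaving out Ucn3 null replicate 1 made it -0.84, leaving out replicate 2 of the nulls -0.20. With the acinar marker mean as a covariate it was -0.89 (limma adjusted p = 0.976). All 12 ductal markers of the list were present and none was at 0 in any library. Their summed level ranged over 337 to 441 RPKM for wild type and over 276 to 334 RPKM for the nulls, and their part in the Hspb1 values was not tested. In whole islets, fewer cells of a type and less RNA per cell cannot be told apart.

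Of the cytosolic HSP90 genes, Hsp90ab1, the constitutive beta form, had the narrowest range of the 10. It was at 217, 185 and 179 RPKM in the wild-type animals (replicates 1, 2, 3) and 206, 174 and 201 RPKM among the nulls (replicates 1, 2, 3), and the group means were 194 ± 20.6 and 194 ± 17.3 RPKM (SD, n = 3 each). The 95% interval of its log2 difference, -0.26 to 0.27, corresponds to folds of 0.833 to 1.20 in RPKM + 1. Hsp90aa1, the inducible alpha form, was at 91.3, 70.6 and 62.4 RPKM in the wild-type animals and 78.1, 54.0 and 68.6 RPKM among the nulls (log2 difference -0.16, SE 0.17, limma adjusted p = 0.826). With the acinar covariate the difference was -0.35 (limma adjusted p = 0.976). The ratio of Hsp90aa1 to Hsp90ab1 was 0.420, 0.382 and 0.348 in the wild-type animals and 0.379, 0.310 and 0.340 among the nulls. Its means were 0.383 ± 0.036 and 0.343 ± 0.035 (SD, n = 3 each), and the groups overlapped (exact two-sided permutation p = 0.2, adjusted over 2 ratios 0.4).

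In the mitochondrial pair the highest library was 1.38 times the lowest for Hspd1 and 1.56 times for Hspe1, where the median of all genes tested was 1.29. Hspd1 was at 53.4, 42.0 and 38.7 RPKM in the wild-type animals (replicates 1, 2, 3) and 53.4, 39.9 and 47.5 RPKM among the nulls (replicates 1, 2, 3). Hspe1 was at 111, 106 and 82.1 RPKM in the wild-type animals and 120, 77.5 and 97.6 RPKM among the nulls. In both genes replicate 1 was the highest library of its genotype. The log2 differences were 0.07 (SE 0.15, limma adjusted p = 0.919) for Hspd1 and -0.03 (SE 0.18, limma adjusted p = 0.974) for Hspe1, whose sign changed with the scaling. The partner genes share the heat shock element run printed above, and they correlated at Pearson r = 0.85 over the 6 libraries, as a description.

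**Figure D3:**
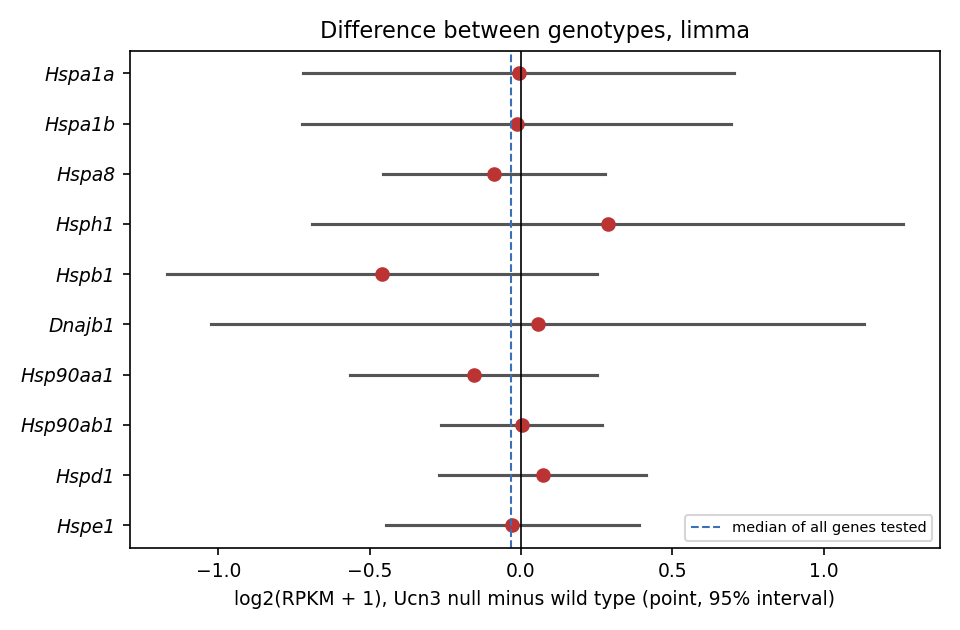
Difference between Ucn3 null and wild type on the log2(RPKM + 1) scale for the 10 genes; points are limma estimates, bars 95% intervals (n = 3 each), and the dashed line is the median of all genes tested. Each of the 10 intervals includes 0; Dnajb1 and Hsph1 have the widest and Hsp90ab1 the narrowest.

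In order of mean level over the 6 libraries the genes were Hspa8 at 290 ± 40.5, Hspa1a at 270 ± 76.3, Hspa1b at 265 ± 75.1, Hsp90ab1 at 194 ± 17.02, Hspe1 at 99.1 ± 16.8, Dnajb1 at 86.1 ± 35.9, Hsp90aa1 at 70.8 ± 12.9, Hspd1 at 45.8 ± 6.59, Hsph1 at 35.1 ± 15.7 and Hspb1 at 17.2 ± 5.96 RPKM (SD, n = 6). The ranges of neighbours overlapped except between Hsp90ab1 and Hspe1 and between Hsp90aa1 and Hspd1. Within libraries, the Hspa8 row was above the Hspa1a row in 4 of 6, while the sum of Hspa1a and Hspa1b was above Hspa8 in all 6, as the ratios given above show. If reads that fit both copies were counted in both rows, that sum is too high, so its place above Hspa8 is uncertain.

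The spread between libraries was large beside that of other genes. The SD of log2(RPKM + 1) over the 6 libraries was 0.69 for Dnajb1, 0.64 for Hsph1, 0.52 for Hspb1 and 0.44 for both Hspa1a and Hspa1b, against a median of 0.12 over all genes tested. Between 97.1% and 98.8% of tested genes had an SD at or below those of these 5 inducible genes. The highest library was at least 2 times the lowest for these 5 of the 10 genes, and for 6.67% of all genes tested. For Hsp90aa1, Hspe1, Hspa8 and Hspd1 the corresponding percentiles were 92.0, 91.4, 87.4 and 86.9, and for Hsp90ab1 58.1. Genotype accounted for 0.00782% of the variance of Hspa1a over the 6 libraries, 0.20% of that of Dnajb1 and 23.9% of that of Hspb1, the highest of the 10. The median over all genes tested was 16.4%.

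**Figure D4:**
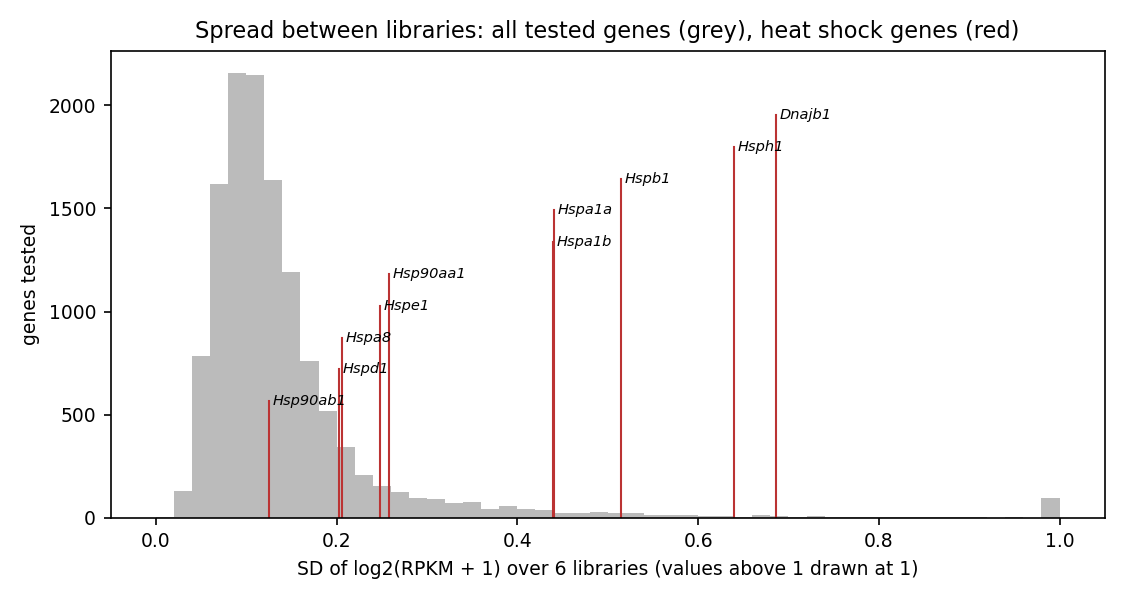
SD of log2(RPKM + 1) over the 6 libraries (x axis) for all 12652 tested genes, as a histogram of gene counts, with the 10 heat shock genes as labelled red lines whose heights carry no value; SDs above 1 are drawn at 1. Dnajb1, Hsph1, Hspb1, Hspa1a and Hspa1b lie in the far right tail, and Hsp90ab1 lies near the centre.

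The same libraries were high or low for nearly all 10 genes. Wild type replicate 1 was the highest wild-type library for 10 of 10 genes and wild type replicate 3 the lowest for 10 of 10. Ucn3 null replicate 1 was the highest null library for 9 of 10 and Ucn3 null replicate 2 the lowest for 10 of 10. Wild type replicate 1 exceeded replicate 3 by 3.82 times for Dnajb1, 3.30 times for Hsph1, 2.30 times for Hspa1a, 1.46 times for Hsp90aa1, 1.38 times for Hspd1 and 1.21 times for Hsp90ab1, where the median ratio of all genes tested was 0.987. All 45 pairs of the 10 genes correlated positively over the 6 libraries, with Pearson r from 0.30 (Hsph1 and Hspb1) to 0.999 (Hspa1a and Hspa1b) and a median of 0.84. These points share library and scaling and are few, so the values are a description. The Hspa1a and Hspa1b rows may also share reads, so their pair may not be separate measurements. The high libraries, wild type replicate 1 and Ucn3 null replicate 1, were the shallowest and the deepest, at an estimated 42600000 and 51930000 reads. The acinar marker mean on the log2(RPKM + 1) scale was 6.65, 3.78 and 5.53 in the wild-type animals and 8.36, 7.70 and 6.45 among the nulls. In both genotypes replicate 1, a high library for the heat shock genes, also had the highest acinar mean of its genotype. The lowest acinar means of each genotype were in wild type replicate 2 and Ucn3 null replicate 3, not in the libraries lowest for the heat shock genes. The part of the acinar mean in the heat shock values was not tested.

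By a mean of standardised values over Hspa1a, Hspa1b, Hsph1, Hspb1 and Dnajb1, the libraries stood at 1.13, 0.19 and -1.20 in the wild-type animals (replicates 1, 2, 3) and 0.70, -0.84 and 0.01 among the nulls (replicates 1, 2, 3). Hspa1a and Hspa1b, which may share reads, each entered this profile. Among 7383 other genes with a mean of at least 5 RPKM, the 5 most like this profile were Atf3 (Pearson r = 0.998), Hspa1l (0.987), Klf2 (0.981), Klf6 (0.978) and Ptp4a1 (0.976), each over 6 libraries. Atf3 and Klf6 also belong to the immediate early list described next. Of these 7383 genes 0.582% had r over 0.9 and 0.447% had r under -0.9. Atf3, a stress-induced transcription factor, was at 204, 106 and 47.5 RPKM in the wild-type animals and 143, 58.6 and 99.7 RPKM among the nulls. Its libraries fell in the order of Hspa1a and Dnajb1. Hspa1l, a further HSP70 gene that starts beside Hspa1a in the opposite direction, was at 47.9, 37.3 and 20.9 RPKM in the wild-type animals and 41.4, 26.9 and 32.4 RPKM among the nulls. Its coding sequence is identical to that of Hspa1a at 83.8% of aligned bases, so its reads may be shared in part.

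Immediate early genes are transcription factors and signalling genes that cells switch on within minutes of a stimulus. All 21 tested genes of this list correlated positively with the heat shock profile (median r = 0.87, from 0.19 to 0.998, over 6 libraries), and 20 of the 21 varied at least 2 times between the highest and lowest library. The share of all tested genes with a positive r is not given here, so the count of positive correlations is a description. Fos, a subunit of AP-1, was at 592, 499 and 217 RPKM in the wild-type animals and 389, 416 and 543 RPKM among the nulls, so its null libraries fell in another order than those of Hspa1a. The list means of log2(RPKM + 1) were 5.97, 5.45 and 4.62 in the wild-type animals (replicates 1, 2, 3) and 5.48, 5.09 and 5.44 among the nulls (replicates 1, 2, 3). Between genotypes 0 of 21 passed in limma and 0 had an unadjusted p under 0.05, and the median difference of -0.07 ranged from -0.34 to 0.25 with 1 library left out. The part of these genes' state in the heat shock values was not tested.

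**Figure D5:**
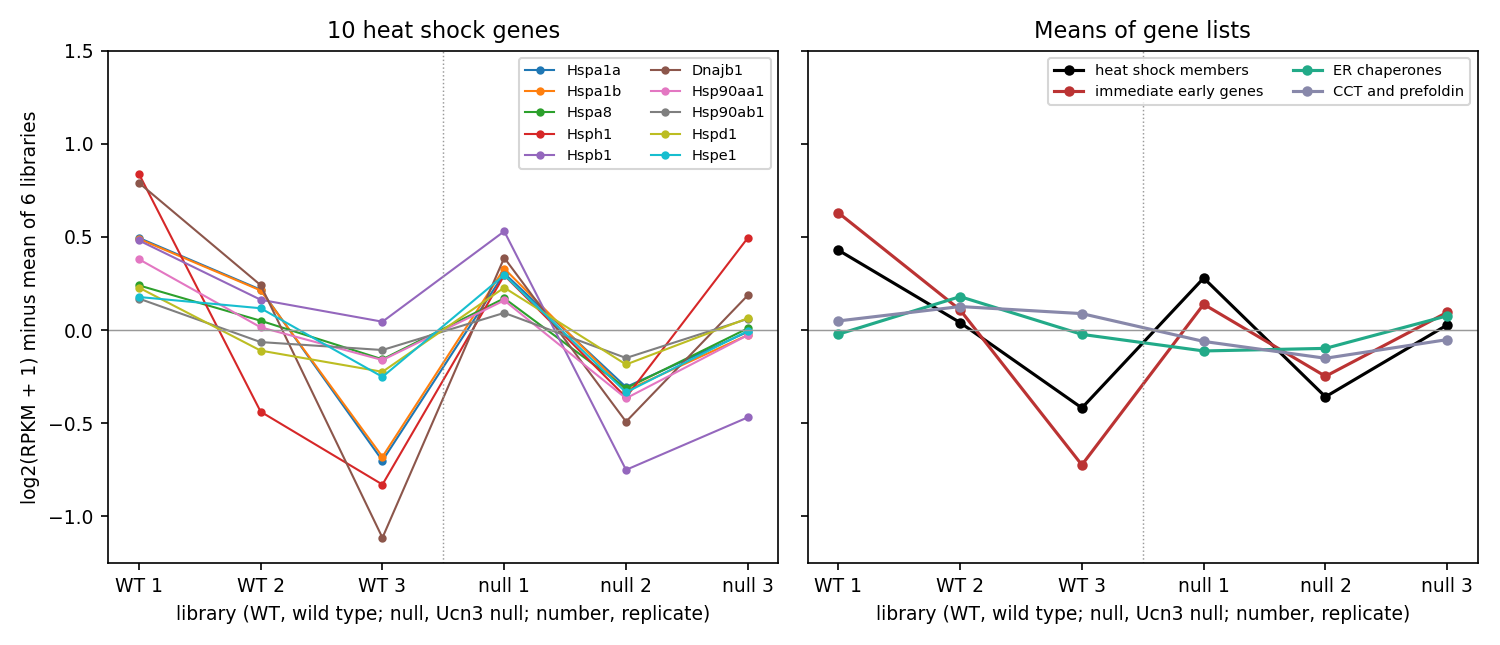
Log2(RPKM + 1) minus the mean of the 6 libraries, for each of the 10 heat shock genes (left) and for the means of 4 gene lists (right); lines only join values of 1 gene or list and imply no order of replicates. The means of the heat shock and immediate early lists are highest in wild type replicate 1 and lowest in wild type replicate 3, and those of ER chaperones and of CCT and prefoldin span a narrower range.

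Other chaperones were followed in lists, which held 130 genes together with the immediate early genes, 121 of them tested, and 0 of these passed between genotypes in limma. Of all 12652 genes tested, 7809 had a negative log2 difference, which is the background for the counts of signs that follow. Among 17 further HSP70, HSP110 and nucleotide exchange genes the median log2 difference was -0.07, with 4 positive and 13 negative. Under the other 3 scalings 10 of the 17 were negative and the median lay between -0.05 and -0.02. Hspa4, an HSP110 family member, was at 17.1 ± 0.37 and 15.4 ± 0.37 RPKM and Bag1, an exchange factor, at 27.7 ± 0.82 and 24.98 ± 0.84 RPKM, wild type given first (mean ± SD of 3 animals; limma, adjusted p = 0.527 and 0.536). Neither changed 2 times between any libraries. Bag3 and Hspa1l, named after their values were seen, were the 2 of these 17 that did. Bag3, an HSF1-induced cochaperone, was at 13.2, 5.98 and 4.79 RPKM in the wild-type animals and 10.7, 7.04 and 8.54 RPKM among the nulls.

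Of 15 further cytosolic J-domain genes, 6 were positive and 9 negative, with a median of -0.05, which was -0.0026 with equal totals without the acinar list. Dnajc21 was at 13.2 ± 0.14 and 11.4 ± 0.29 RPKM and Dnaja2 at 17.1 ± 0.26 and 15.0 ± 1.09 RPKM, wild type given first (mean ± SD of 3 animals; limma, adjusted p = 0.486 and 0.520). In this list Dnaja1, Dnaja4 and Dnajb4, also named after their values were seen, varied at least 2 times between libraries. Dnaja1, a partner of HSP70 in protein import and folding, was at 71.3, 35.04 and 25.9 RPKM in the wild-type animals and 59.3, 37.3 and 47.2 RPKM among the nulls, high in the same 2 libraries as Hspa1a. Among 16 HSP90 cochaperones the median was -0.09, with 3 positive and 13 negative, and the median was -0.03 with equal totals without the acinar list. Ptges3, the p23 cochaperone, was at 23.0 ± 1.42 and 19.1 ± 0.86 RPKM and Fkbp4, an immunophilin, at 45.8 ± 3.64 and 39.5 ± 0.69 RPKM (mean ± SD of 3 animals; limma, adjusted p = 0.486 and 0.502). Fkbp5 alone among these 16 varied at least 2 times.

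Between libraries, none of the 4 tested heat shock factors and regulators varied 2 times. Hsf1, the main activator, was at 10.5 ± 1.03 and 10.9 ± 0.55 RPKM, wild type given first (mean ± SD of 3 animals; limma, adjusted p = 0.892), with an SD over 6 libraries at the 33.6 percentile of tested genes. Hsf2 was at 9.07 ± 0.93 and 8.96 ± 0.61 RPKM, and Hsbp1, a small protein that binds HSF1, at 34.0 ± 2.501 and 28.5 ± 1.23 RPKM (limma adjusted p = 0.486). Of 9 small heat shock proteins 4 were tested, and 3 of these were negative (2 under each other scaling), with a median of -0.13. Cryab (alpha B crystallin) was at 2.02 ± 0.32 and 1.22 ± 0.34 RPKM (mean ± SD of 3 animals; limma, adjusted p = 0.486). It alone among these 4 varied at least 2 times between libraries, at a level near the minimum mean of 1 RPKM. Of 11 other mitochondrial chaperones none varied 2 times between libraries. The median of their SD percentiles was 44.7, and their median difference was -0.06, or 0.0033 with equal totals without the acinar list. Dnajc19 was at 31.2 ± 0.39 and 26.4 ± 2.13 RPKM, wild type given first (mean ± SD of 3 animals; limma, adjusted p = 0.486).

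The cytosolic CCT chaperonin, which folds actin and tubulin, and prefoldin, which hands clients to it, were measured by 14 tested genes. All 14 had a negative log2 difference, with a median log2 difference of -0.16 against -0.03 over all genes tested, and none passed in limma (6 had an unadjusted p under 0.05). Every null library lay below every wild-type library for 10 of the 14, where 13.2% of all genes did so. That count was 6, 8 and 7 under median-ratio, upper-quartile and equal-total scaling (totals without acinar markers), where 8.14%, 9.94% and 6.69% of all genes did so. All 14 kept the negative sign under each, with medians of -0.11, -0.13 and -0.098 where the median of all genes tested was 0.0054, -0.0042 and 0.019. H2-Ke2, the table's symbol for prefoldin subunit Pfdn6, Pfdn4, Pfdn1 and Cct6a had the smallest p. Pfdn4 was at 8.37 ± 0.30 and 6.69 ± 0.55 RPKM and Cct6a at 26.9 ± 0.46 and 23.5 ± 0.52 RPKM, wild type given first (mean ± SD of 3 animals; limma, adjusted p = 0.486 each). None of the 14 varied 2 times between libraries. Acinar markers, 20 of 20 present and none at 0, summed to 439 to 5159 RPKM for wild type and to 3923 to 18555 RPKM for the nulls. Delta cell markers, 6 of 6 present and none at 0, summed to 1795 to 2458 RPKM for wild type and to 732 to 1133 RPKM for the nulls. Of these, 5 of 5 tested had a negative difference (median -0.78), and 4 of 5 did so under each other scaling. All 11 tested ductal markers were also negative, with a median of -0.33. The part of these markers in the CCT and prefoldin values was not tested.

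Chaperones of the endoplasmic reticulum fold insulin and other secreted proteins, and the list also holds Ddit3, Atf4 and Xbp1, transcription factors of the stress response of this compartment. Of 19 tested genes 17 were negative (16 under each other scaling), with a median of -0.11, and 0 passed or had an unadjusted p under 0.05. Ddit3 (CHOP), named after its values were seen, was the 1 gene of the 19 that varied at least 2 times between libraries. It was at 126, 66.7 and 31.2 RPKM in the wild-type animals and 80.6, 91.7 and 127 RPKM among the nulls (log2 difference 0.60, limma adjusted p = 0.715), and correlated with the heat shock profile at r = 0.65. Hspa5 (BiP), the HSP70 of this compartment, was at 453, 496 and 391 RPKM in the wild-type animals and 387, 399 and 466 RPKM among the nulls. Its libraries were not in the order of Hspa1a. The list mean correlated with the heat shock profile at r = 0.08, that of CCT and prefoldin at 0.12, and the acinar, ductal, delta, beta, alpha, endothelial, macrophage and fibroblast marker means at 0.15, 0.50, -0.08, -0.14, -0.14, 0.65, 0.41 and -0.10. Among the other chaperone lists r was 0.81 for further J-domain genes, 0.76 for further HSP70, HSP110 and exchange genes and 0.57 for HSP90 cochaperones. For small heat shock proteins it was 0.50, for mitochondrial chaperones -0.20 and for heat shock factors and regulators -0.37. Each of these is over 6 libraries and is a description, and the immediate early list had 0.95.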

How the data were processed

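The authors deposited 1 table of RPKM values, listed by RefSeq transcript, for 6 islet libraries, per the file headers. STAR, bedtools, DESeq and build mm9 appear in the submitters' processing notes, which assign them no step. Of its 28129 rows, 117 lacked values and 1 held text among them. A gene was represented by its transcript of highest mean RPKM, and tested where that mean was at least 1. The fit was limma 3.58.1 in R 4.3.3 on log2(RPKM + 1), with genotype as the only term, eBayes with a mean trend, and Benjamini-Hochberg adjustment over 12652 genes; this scale understates fold changes of low genes. The limma p-values and intervals use the spread between 3 animals per genotype, drawn by eBayes toward that of genes of similar level. The intervals of widely spread genes such as Dnajb1, Hsph1 and Hspa1a are therefore narrower than their animals' own spread alone would give.

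The members and lists were chosen with earlier results of these data known. Named genes were the 10 members, Ucn3, up to 4 genes per list with the smallest p, and the 5 most like the inducible members. Others shown (Fos, Hspa5, Bag3, Dnaja1, Dnaja4, Dnajb4, Fkbp5 and Ddit3) were chosen after their values were seen. Depth was estimated from the steps between low RPKM values and GENCODE M21 lengths (97.5% of rows matched); between 68.1% and 69.6% of low values came within 0.1 of a whole read, so read numbers are approximate and no count test was run. Sequences come from a build other than that of the table, and no coordinates were combined. Alternatives were other filters, another pseudocount, 3 scalings, summed transcript rows, no mean trend, an acinar covariate and leaving out each library. Coding sequences were aligned with Biopython 1.88, and figures drawn with matplotlib 3.10.9 in Python 3.11.15.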

Additional observations from a re-analysis of the deposited data

How the results depend on the processing

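None of the 10 heat shock genes passed the limma threshold under any of the 15 alternatives (lowest adjusted p 0.31). Of 150 values for the 10 genes 116 kept their direction and 34 did not, 21 of them with 1 library left out. The opposite sign appeared with median-ratio, upper-quartile and equal-total scaling for Hspa1a (0.041, 0.029 and 0.058), Hspa1b (0.033, 0.021 and 0.050) and Hspe1 (0.018, 0.0070 and 0.035). With the acinar mean as a covariate it appeared for Hsph1 (-0.18), Dnajb1 (-0.12), Hsp90ab1 (-0.10) and Hspd1 (-0.12), and the other 6 became more negative: Hspa1a (-0.15), Hspa1b (-0.17), Hspa8 (-0.19), Hspb1 (-0.89), Hsp90aa1 (-0.35) and Hspe1 (-0.10). All 19 tested acinar markers had a positive log2 difference between genotypes (median 2.45), so this covariate and genotype are partly confounded. The cause of these shifts was not tested. With 1 library left out, the log2 difference ranged from -0.36 to 0.24 for Hspa1a, -0.36 to 0.23 for Hspa1b, -0.20 to 0.046 for Hspa8, -0.058 to 0.78 for Hsph1, -0.84 to -0.20 for Hspb1, -0.49 to 0.46 for Dnajb1, -0.28 to -0.0050 for Hsp90aa1, -0.052 to 0.087 for Hsp90ab1, -0.025 to 0.20 for Hspd1 and -0.18 to 0.13 for Hspe1. The log2 difference between genotypes in the ratio of Hspa1a plus Hspa1b to Hspa8, 0.08 with all libraries, then ranged from -0.17 to 0.22, and that of Hsp90aa1 to Hsp90ab1 from -0.23 to -0.09. Of all genes, 2 passed with the main settings, 4 without a filter, 1 at a mean of at least 5 RPKM, 1 with the acinar covariate, and 1 to 5 with 1 library left out (5 when the first Ucn3 null replicate was left out and 1 when the second was). The count of 10 CCT and prefoldin genes with every null library lower was 6 under median-ratio scaling, an alternative chosen after seeing the data. No paired analysis was possible because the labels tie no null animal to a wild-type animal and give no shared replicate numbers.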
